A study of Mus musculus with 13 samples.

Results

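Of the 30011 peaks of the glucocorticoid receptor (GR) called in control mouse liver after vehicle, 3918 (13.1%, 95% exact interval 12.7 to 13.4) had no GR peak within 500 bp, centre to centre, after dexamethasone in either genotype. These 3918 regions are called vacated sites, and they were chosen from 217044 peaks in 7 deposited lists. The name states the choice and no more: a missing peak means that none was called, and GR may still have been present below the threshold. Another 25258 control vehicle peaks had a control dexamethasone GR peak within 500 bp and are called retained sites. The remaining 835 had a dexamethasone peak in dKO liver only and belong to neither class. GR peak positions after dexamethasone chose the members, so their absence is not a result, and the control vehicle GR values of the members are given as description.

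The livers came from male mice injected at zeitgeber time 8 and taken 2 h later, at zeitgeber time 10. GR was profiled in dKO mice given dexamethasone, control mice given dexamethasone at 1 mg/kg, dKO mice given vehicle and control mice given vehicle, with 2 libraries in each group. The corepressor NCOR1 was profiled in control mice given dexamethasone (2 libraries), dKO mice given vehicle (1 library) and control mice given vehicle (1 library), and 1 input library served all lists. The dKO genotype is labelled CRE and the control genotype GFP. The dKO is a knockout that includes NCOR1, and the dexamethasone dose was the same in both genotypes. The vector, promoter or cell type that carried Cre or GFP, and the ages of the mice, are not given in the sources used here. The NCOR1 antibody still gave 17282 peaks in dKO liver, against 39458 in control liver after vehicle. Whether those peaks are remaining NCOR1 or other signal of the antibody was not tested. Whole liver was used, so cell types cannot be told apart. Each list pools the libraries of its group, so variation between animals is not seen, peaks are not replicates, and intervals on shares cover counting error only.

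GR is a nuclear receptor that enters the nucleus when it binds a glucocorticoid and attaches to DNA directly, at the paired hexamers of its response element, or through other factors already on chromatin. In liver it acts on fasting metabolism, the clock and inflammation. In an untreated animal it is partly active, since the adrenal gland releases corticosterone in a daily rhythm. NCOR1 is a scaffold protein that holds the histone deacetylase HDAC3 at nuclear receptors and other factors, and is best known for lowering transcription.

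The vacated sites whose centres fell inside a promoter window belonged to genes with varied roles, and the windows of the 7 strongest are printed to show the DNA under these peaks. Mt2 encodes a metal-binding metallothionein, Tgif1 a homeobox repressor of TGF-beta signalling, and Ap2m1 a subunit of the clathrin adaptor. Rxra encodes the partner of many nuclear receptors, Phrf1 a PHD and RING finger protein, Erh a small conserved nuclear protein, and Serpina1a an alpha-1 antitrypsin. Each window runs 5′ to 3′ from 250 bases before to 50 bases after a start site and is RefSeq sequence on GRCm38.p6. Capitals mark matches to any of 7 motifs, searched on both strands.
Mt2, chr8:94172368-94172667, + strand: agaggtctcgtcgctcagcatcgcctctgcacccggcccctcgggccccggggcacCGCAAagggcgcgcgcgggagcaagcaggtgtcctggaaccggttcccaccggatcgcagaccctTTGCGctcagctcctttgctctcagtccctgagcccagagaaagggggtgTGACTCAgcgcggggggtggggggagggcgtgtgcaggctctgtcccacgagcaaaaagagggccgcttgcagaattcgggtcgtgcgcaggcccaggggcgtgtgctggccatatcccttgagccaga
Tgif1, chr17:70851685-70851984, - strand: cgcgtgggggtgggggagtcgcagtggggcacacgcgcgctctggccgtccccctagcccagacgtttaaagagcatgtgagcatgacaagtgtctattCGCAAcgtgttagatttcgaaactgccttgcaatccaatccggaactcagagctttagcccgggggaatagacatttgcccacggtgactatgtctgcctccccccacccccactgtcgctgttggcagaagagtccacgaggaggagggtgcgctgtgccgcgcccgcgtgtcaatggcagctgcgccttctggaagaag
Ap2m1, chr16:20535230-20535529, + strand: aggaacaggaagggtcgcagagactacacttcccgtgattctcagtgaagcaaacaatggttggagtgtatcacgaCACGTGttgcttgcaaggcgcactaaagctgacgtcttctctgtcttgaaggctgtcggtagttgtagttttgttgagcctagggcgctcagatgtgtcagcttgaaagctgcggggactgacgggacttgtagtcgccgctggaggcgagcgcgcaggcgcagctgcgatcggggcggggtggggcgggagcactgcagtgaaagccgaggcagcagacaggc
Rxra, chr2:27676951-27677250, + strand: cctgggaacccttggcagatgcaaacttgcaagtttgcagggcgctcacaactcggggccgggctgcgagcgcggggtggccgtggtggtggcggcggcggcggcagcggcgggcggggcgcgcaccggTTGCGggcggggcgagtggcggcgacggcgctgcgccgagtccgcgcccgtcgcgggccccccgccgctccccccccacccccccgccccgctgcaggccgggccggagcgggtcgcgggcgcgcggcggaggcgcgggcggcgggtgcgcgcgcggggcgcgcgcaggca
Phrf1, chr7:141228538-141228837, + strand: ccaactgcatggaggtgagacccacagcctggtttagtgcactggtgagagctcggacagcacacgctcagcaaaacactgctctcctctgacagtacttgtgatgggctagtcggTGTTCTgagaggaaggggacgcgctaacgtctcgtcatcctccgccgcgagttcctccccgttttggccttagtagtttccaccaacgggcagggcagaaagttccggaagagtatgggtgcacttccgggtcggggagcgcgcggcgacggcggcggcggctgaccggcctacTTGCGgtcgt
Erh, chr12:80644062-80644361, - strand: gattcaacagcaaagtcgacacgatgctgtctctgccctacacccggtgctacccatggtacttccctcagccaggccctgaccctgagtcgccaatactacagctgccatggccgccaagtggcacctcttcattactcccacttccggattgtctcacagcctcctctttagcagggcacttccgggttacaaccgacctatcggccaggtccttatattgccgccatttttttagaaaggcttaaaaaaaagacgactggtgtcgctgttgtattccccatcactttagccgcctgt
Serpina1a, chr12:103863570-103863869, - strand: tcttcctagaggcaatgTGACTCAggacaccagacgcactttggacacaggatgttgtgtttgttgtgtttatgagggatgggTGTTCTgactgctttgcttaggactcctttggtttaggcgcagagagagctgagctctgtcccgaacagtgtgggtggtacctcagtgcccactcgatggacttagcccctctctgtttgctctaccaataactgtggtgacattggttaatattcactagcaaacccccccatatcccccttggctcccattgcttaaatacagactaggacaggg
The search words were AGAACA (GR hexamer, 1 arm of its response element), AGAACA and TGTTCT with 3 bases between (glucocorticoid response element), AGGTCA (nuclear receptor hexamer), 2 copies of AGGTCA with 1 base between (DR1 element), TTGCG (part of the C/EBP site), CACGTG (E-box) and TGANTCA (AP-1 element). A match is a description of letters and not a bound site. No match says only that the letters are not in the window.

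In these 7 windows, no glucocorticoid response element was found. The Mt2 window held 2 C/EBP matches and 1 AP-1 match, and the peak centre lay 30 bp downstream of the start site. The Tgif1 window held 1 C/EBP match, the Ap2m1 window 1 E-box and the Rxra window 1 C/EBP match. Both Phrf1 and Serpina1a held 1 GR hexamer, beside 1 C/EBP match in Phrf1 and 1 AP-1 match in Serpina1a. The Erh window held none of the motifs.

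The values at these 7 promoters differed in the dKO and NCOR1 lists. GR was called after vehicle in dKO liver at 5 of them, at Mt2 (tag count 20.2, against 38.4 in control liver), Tgif1 (20.5 against 29.1), Rxra (18.3 against 24.0), Phrf1 (23.8 against 22.4) and Erh (19.9 against 22.2). It was not called in dKO liver at Ap2m1 (27.3 in control liver) or Serpina1a (22.2). NCOR1 was called in control liver after vehicle and not after dexamethasone at 4, Mt2 (51.8), Tgif1 (23.6), Phrf1 (12.9) and Serpina1a (41.9). In control liver, Erh had an NCOR1 peak after dexamethasone alone (11.2), and Ap2m1 and Rxra had none. Erh also had an NCOR1 antibody peak in dKO liver (14.3). The nearest control dexamethasone GR peak was between 608 bp (Erh) and 36928 bp (Rxra) away.

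Across all promoter windows that held a vacated site (456 windows, 404 sites, 436 genes), the response element was found in 0 of 456, which allows a share of up to 0.806%. It was in 2 of 1494 windows that held a retained site and no vacated one, and in 3 of all 32851 windows, so the spelling is rare in such windows. GR hexamers were in 13.8% (10.8 to 17.3) of the vacated windows, 17.9% of the retained windows and 19% of all windows. Nuclear receptor hexamers were in 12.7% (9.8 to 16.1), 19.3% and 16.3% in the same order. These hexamers were therefore no more frequent in vacated windows than in all windows. The C/EBP letters were in 34% (29.7 to 38.5) of vacated windows, 26.8% of retained windows and 17.4% of all windows, and the E-box in 12.1% (9.22 to 15.4), 9.97% and 7.15%. AP-1 was in 5.04% (3.22 to 7.47), 6.29% and 7.81%, and DR1 in 0 of 456, 1 of 1494 and 13 of 32851. Base composition moved in the same direction as the C/EBP and E-box shares, both of which contain a CG. The median window held 23 CG pairs and 61.7% G or C among vacated windows, 20 and 60.3% among retained windows, and 7 and 52.7% over all windows. The part of base composition in the motif shares was not tested. With 456 windows for 404 sites, some windows overlap and share DNA. The intervals count each window as separate, so they are narrower than the data warrant.

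Vacated sites were weak peaks for the most part. Their normalized tag count, the signal that the authors deposited for each peak, scaled to 10 M sequenced tags, had a median of 8.01 (quartiles 6.55 and 10.8, range 4.91 to 55.7), against 14.4 (9.65 and 19.8, range 4.55 to 725) at retained sites and 13.3 over the list. Fold over input had a median of 7 at vacated and 13.3 at retained sites, and fold over the surrounding 10 kb a median of 5.26 and 9.36. Under 8-fold over the local 10 kb lay 86.2% of vacated and 40.6% of retained sites, where 4-fold is the minimum the authors set. The part of sequencing depth in the choice of these weak sites was not tested.

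**Figure D1:**
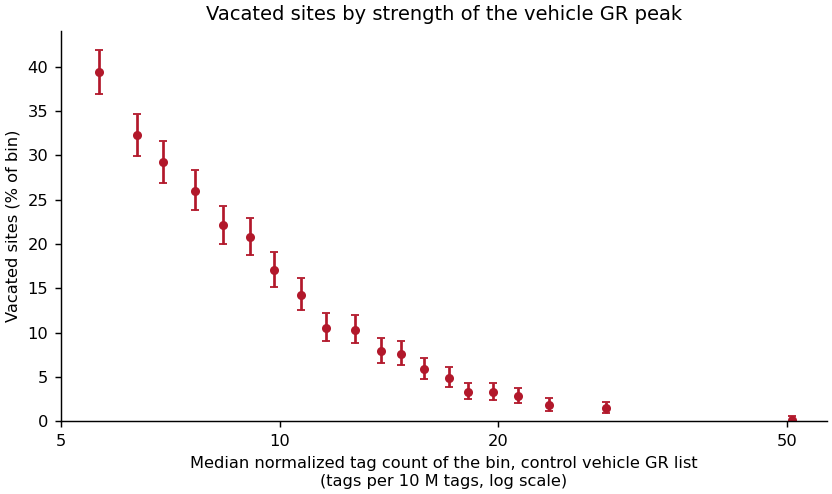
Share of control vehicle GR peaks that were vacated (y axis, percent) in 20 equal bins of the list by normalized tag count (x axis, tags per 10 M tags, log scale, at the bin's median). Points are shares and bars 95% exact intervals, which cover counting error only. The share was 39.4% in the weakest bin and 0.2% in the strongest, against 13.1% over the list.

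When the control vehicle list was divided into 5 equal classes of tag count, 31.7% of the weakest class were vacated (1904 sites), then 18.6% (1114), 9.1% (546), 4.33% (260) and 1.57% of the strongest class (94 sites). The vacated sites of the strongest class had a median fold over local of 5.52, against 17.2 for retained sites of that class. They stood in neighbourhoods of high signal. Another control vehicle peak lay within 5 kb of 69.1% of the vacated sites of that class, against 27.4% of the retained ones, and over all classes these shares were 29.7% and 21.9%.

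The distance to GR peaks called after dexamethasone was used by the rule and is given as description. The nearest control dexamethasone peak was at a median distance of 7.89 kb (quartiles 2.72 and 20.5 kb). It was within 1 kb for 8.45% of vacated sites, within 5 kb for 38.3%, within 10 kb for 56.5% and within 50 kb for 90.5%. No comparison is drawn from these distances.

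**Figure D2:**
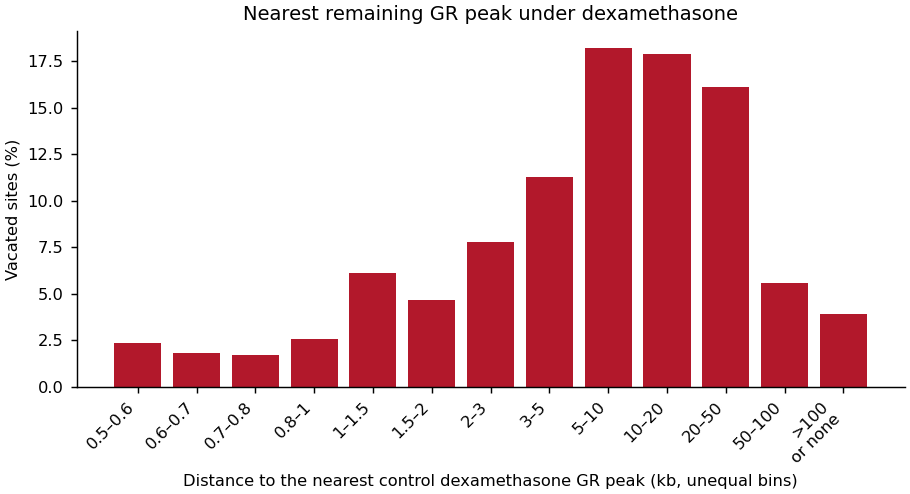
Distance from each vacated site to the nearest control dexamethasone GR peak (x axis, kb, in unequal bins) and the share of the 3918 vacated sites in each bin (y axis, percent). Bars are shares of sites. The median was 7.89 kb, and 38.3% of sites lay within 5 kb.

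The limit of 500 bp cut through a continuous range. In the first 100 bp beyond the limit there were 107 vacated sites, with a median tag count of 9.65, and in the last 100 bp before it 149 excluded peaks, with a median of 10. The nearest sites inside the limit were assigned to Fam186a (501 bp), Sdr42e1 (502 bp), Btg2, Fam193a and Mmgt2 (503 bp each). The nearest outside were assigned to Metap1 (499 bp), Tox (497 bp), Aox1 and Sh3rf1 (496 bp each) and Zfp119b (495 bp).

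The strongest vacated site lay on chromosome 8 (126734881 to 126735081, mm10), with a tag count of 55.7 in the control vehicle GR list and no protein-coding gene within 100 kb. A control dexamethasone peak was called 891 bp away. NCOR1 peaks of control liver covered the site after dexamethasone (tag count 42.4) and after vehicle (74.3). No dKO vehicle GR peak lay within 500 bp.

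The second strongest covered the Mt2 promoter printed above (chromosome 8, 94172548 to 94172748). It had a GR tag count of 20.2 in the dKO vehicle list and 38.4 in the control vehicle list. NCOR1 had no peak there after dexamethasone in control liver, against a vehicle peak of 51.8 whose centre lay 7 bp away. The nearest control dexamethasone GR peak was 1139 bp away. Mt2 had 3 control vehicle GR peaks in all, and 2 of them were retained.

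A site 16.4 kb from Psen2, the presenilin 2 gene, had GR tag counts of 20.2 in dKO vehicle and 34.9 in control vehicle (chromosome 1, 180279764 to 180279964). Unlike most vacated sites it stood 22.24-fold over its local 10 kb, and the nearest control dexamethasone peak was 16320 bp away. NCOR1 was again called after vehicle (35.7) and not after dexamethasone. At Grhpr, a glyoxylate reductase gene, the vacated site (control vehicle tag count 30.9; chromosome 4, 44983253 to 44983453) had no dKO vehicle counterpart within 500 bp and a vehicle-only NCOR1 peak of 48.9. The Tgif1 promoter (chromosome 17, 70851595 to 70851795) had GR tag counts of 20.5 in dKO vehicle and 29.1 in control vehicle, a vehicle-only NCOR1 peak of 23.6, and its nearest control dexamethasone GR peak 28411 bp away. Gne, which makes a sialic acid precursor, differed from these: its peak beside the start site (GR tag counts of 22.0 in dKO vehicle and 29.1 in control vehicle) kept NCOR1, at 23.0 after dexamethasone and 33.8 after vehicle, and NCOR1 antibody signal of 8.59 in dKO liver.

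Among the 20 strongest vacated sites with a gene within 100 kb, 17 had a control dexamethasone GR peak within 5 kb and 18 were under 8-fold over the local 10 kb. In dKO vehicle liver, 9 of the 20 had a GR peak. NCOR1 was called at 6 after dexamethasone, at 15 after vehicle, and at 2 in dKO liver. Inside the gene body lay 14. At Fkbp5, a cochaperone gene that glucocorticoids induce, the site (26.9; chromosome 17, 28441688 to 28441888) lay 629 bp from a control dexamethasone peak and 44361 bp from the nearest start site, with NCOR1 at 42.9 after dexamethasone and 59.4 after vehicle. The intronic or exonic position of the sites was not analysed here.

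Beside Grhpr, several of the 20 had neither a dKO vehicle GR peak nor an NCOR1 peak after dexamethasone, while NCOR1 was called after vehicle. These others were sites 16.1 kb from the olfactory receptor gene Olfr541 (GR 29.1, NCOR1 after vehicle 47.5), 3.5 kb from Irf2bpl (28.8 and 44.2), in Slc12a3, a sodium chloride cotransporter gene (28.4 and 34.6), and in Dap (27.8 and 36.0). The NCOR1 vehicle peak counted at the Irf2bpl site was centred 438 bp away, so its call rests on the distance chosen. Mfsd2a, a lysophospholipid transporter gene, had the vehicle-only NCOR1 peak (19.4) together with a dKO vehicle GR peak (21.2, against 28.0 in control vehicle). An NCOR1 dexamethasone peak lay 511 bp from the Mfsd2a site and its vehicle peak 315 bp away, so that call too rests on the distance chosen. NCOR1 was in both control lists at Cyp2d40 (43.6 after dexamethasone and 62.7 after vehicle), Osbpl1a (21.0 and 32.9), Bcl9l (65.7 and 73.4) and Anapc16 (24.1 and 24.5). In each of these pairs the dexamethasone value was the lower one. The same order held for the lists as a whole, with median NCOR1 tag counts of 12.2 after dexamethasone and 15.5 after vehicle. At retained sites the medians were 17.1 and 22.8, so the order is not particular to these sites. Gde1 (dKO vehicle GR 19.9, control vehicle 28.2) and Klhl21 (26.0 and 26.2) had a GR peak in both genotypes without NCOR1 in control liver, and Ctif (28.6) had no peak in any of the 4 other lists.

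GR was called less often at vacated than at retained sites in dKO liver after vehicle. A dKO vehicle GR peak lay within 500 bp of 920 vacated sites (23.5%), against 73.1% of retained sites, where 66.2% of all control vehicle peaks had one. The rule itself lowers the vacated share, since sites with a dKO dexamethasone GR peak were kept out of the vacated class and not out of the retained class. Without that exclusion it was 29.6% (1406 of 4753). Under the rule as given, the gap between vacated and retained sites was present in every class of strength. By class, from weakest to strongest, 18.8, 22.4, 26.2, 43.8 and 59.6% of vacated sites had a dKO vehicle peak, against 38.6, 55.6, 74.3, 87.8 and 94.2% of retained sites. In strata of fold over the local 10 kb the shares at vacated sites were 14.8% (under 5-fold), 22.2% (5-fold to under 8-fold) and 54.2% (at least 8-fold), against 32.4, 54.3 and 89.5% at retained sites. Where called, the dKO vehicle GR peaks had a median tag count of 8.03 at vacated and 14.3 at retained sites. The dKO vehicle list was the more deeply sequenced, with 31.1 M tags against 27.5 M for control vehicle, and shorter, with 23362 peaks.

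Read from the other side, control vehicle peaks that had a dKO vehicle peak were vacated in 4.63% of 19868 cases, and those without one in 29.6% of 10143. Of the dKO vehicle peaks themselves, 2272 of 23362 (9.73%) met the same rule, and 926 of these (40.8%) had a control vehicle peak within 500 bp. Both shares rest on lists in which the rule used the dexamethasone peaks, and they are descriptions.

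NCOR1 was called at fewer vacated sites after the drug than after vehicle. In control liver, an NCOR1 peak lay within 500 bp of 50.4% of vacated sites after dexamethasone and 67.6% after vehicle. At retained sites these shares were 58% and 57.3%, against 56.9% and 58.8% of all control vehicle GR peaks. The windows around the NCOR1 vehicle peaks cover 1.94% of the genome size given in the list headers.

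**Figure D3:**
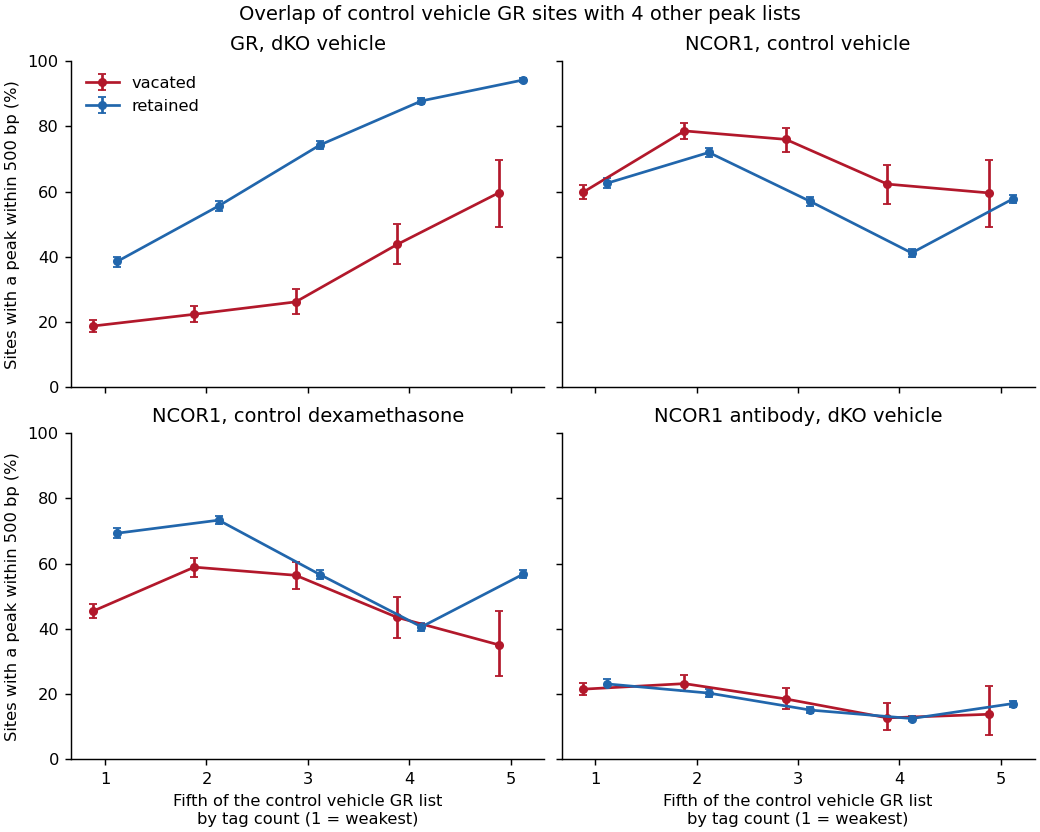
Share of control vehicle GR sites with a peak within 500 bp (y axis, percent) in 4 other lists, by class of control vehicle GR tag count (x axis, 1 is the weakest of 5 equal classes). Red points are vacated and blue points retained sites, with 95% exact intervals that cover counting error only. The dKO vehicle GR share is lower at vacated sites in every class, from 18.8% against 38.6% in the weakest to 59.6% against 94.2% in the strongest.

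The higher NCOR1 vehicle share at vacated sites depended on how peaks were matched. By class of GR tag count it was 59.8, 78.6, 76, 62.3 and 59.6% at vacated sites, against 62.6, 72, 57, 41.2 and 57.8% at retained sites. The intervals overlap in the weakest class, where the vacated share was the lower one, and in the strongest. At equal fold over the local 10 kb the vehicle share was not higher at vacated sites. It was 74.9% at vacated and 76% at retained sites under 5-fold, 71.6% and 78.9% from 5-fold to under 8-fold, and 32.5% and 43% at 8-fold or more. The dexamethasone share was lower at vacated sites in each of these strata, at 53.5% against 75.9%, 56.4% against 79.4%, and 21.8% against 44%.

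A vehicle-only NCOR1 peak was more frequent at vacated sites in every class and stratum of strength. NCOR1 was called after vehicle and not after dexamethasone at 21.5% of vacated sites, against 5.03% of retained sites, where the share over all control vehicle GR peaks was 7.39%. By class of GR tag count it was 21.3, 21.9, 20.9, 21.5 and 25.5% at vacated sites, against 7.2, 5.86, 4.45, 3.76 and 4.7% at retained sites. By fold over local it was 26, 20.2 and 12.4%, against 9.89, 7.03 and 3.19%. Both NCOR1 lists had a peak at 46% of vacated and 52.2% of retained sites, the dexamethasone list alone at 4.36% and 5.8%, and neither list at 28.1% and 36.9%.

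Among sites that had an NCOR1 vehicle peak, an NCOR1 dexamethasone peak was called at 1804 of 2648 vacated sites (68.1%) and 13195 of 14465 retained sites (91.2%). Over all control vehicle GR peaks with NCOR1 the share was 87.4% (15416 of 17635), and over all 39458 NCOR1 vehicle peaks, with or without GR, it was 70.1%. The last set is not matched on strength, since NCOR1 vehicle peaks had a median tag count of 18 at vacated sites and 15.5 over the list. When sites were matched on the tag count of the NCOR1 vehicle peak in place of the GR peak, the shares were 45.8, 59.3, 65.2, 73.4 and 83.8% at vacated sites, against 74.4, 83.4, 88.4, 93.9 and 97.8% at retained sites, from the weakest to the strongest NCOR1 class. The NCOR1 dexamethasone list pools 2 libraries (36.9 M tags), and the vehicle list is 1 library (17.8 M tags), so these lists differ in depth and in the number of libraries.

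**Figure D4:**
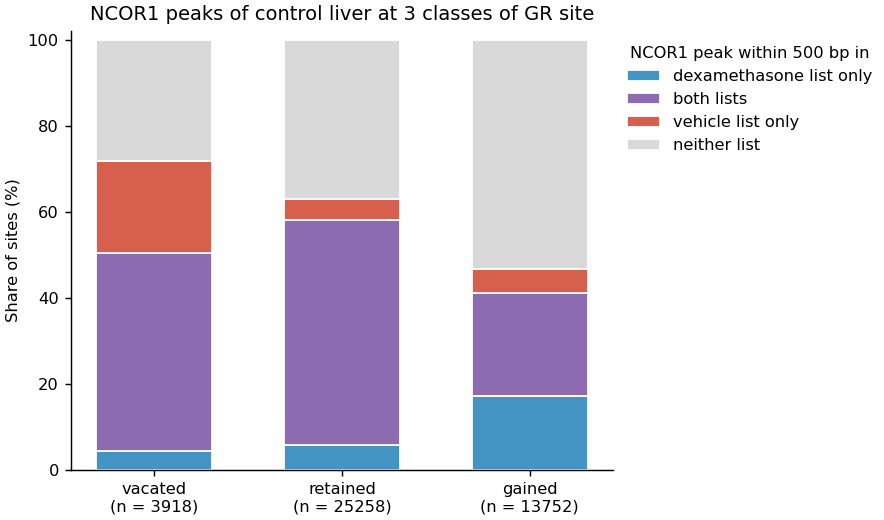
NCOR1 peaks of control liver within 500 bp of vacated, retained and gained GR sites (x axis) as shares of sites (y axis, percent). Colours give sites with an NCOR1 peak in the dexamethasone list only, in both lists, in the vehicle list only or in neither; vehicle-only NCOR1 peaks are at 21.5% of vacated, 5.03% of retained and 5.68% of gained sites.

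Gained sites, the control dexamethasone GR peaks with no vehicle GR peak of either genotype within 500 bp, numbered 13752 of 40853. NCOR1 was called at 41% of them after dexamethasone and 29.6% after vehicle, against 52.6% and 47.8% of all control dexamethasone GR peaks. NCOR1 was in the dexamethasone list only at 17.1% of gained sites, against 10.1% of all control dexamethasone GR peaks. It was in the vehicle list only at 5.68%, close to the 5.33% of all control dexamethasone GR peaks. Whether the GR and NCOR1 libraries came from the same animals is not given in the sources used here.

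NCOR1 antibody peaks of dKO liver differed less between the classes. A dKO NCOR1 peak lay at 20.8% of vacated and 17.1% of retained sites, against 17.7% of all control vehicle GR peaks. At equal fold over local the share was not higher at vacated sites, at 23.4, 21.2 and 11.6%, against 24.8, 23.4 and 12.6% at retained sites. By class of GR tag count it was 21.5, 23.2, 18.5, 12.7 and 13.8% at vacated sites, against 23.1, 20.3, 15.1, 12.5 and 17.1%. Among sites with a control NCOR1 vehicle peak the shares were 24.7% and 25.3%. An NCOR1 vehicle peak with no dKO NCOR1 peak was at 50.9% of vacated and 42.8% of retained sites, against 43.9% of all control vehicle GR peaks. In the weakest class of GR tag count this share was 44.4% at vacated and 45.9% at retained sites, and in the stronger classes it was higher at vacated sites. The intervals overlap in the weakest class, in the next weakest (57.5% against 54.2%) and in the strongest (51.1% against 42.7%). This share was not computed at equal fold over local.

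NCOR1 was called in control liver less often at vacated sites that had a dKO vehicle GR peak than at those without one. The 920 with one had a control NCOR1 peak in 37.1% of cases after dexamethasone and 46.7% after vehicle. The 2998 without one had it in 54.5% and 74%. NCOR1 antibody peaks of dKO liver went the other way, at 24.9% of sites with and 19.5% of sites without a dKO vehicle GR peak. Retained sites showed the same order, at 51% and 50.1% for control NCOR1 with a dKO vehicle GR peak and 77.3% and 76.8% without, and 18% and 14.8% for dKO NCOR1. None of these shares was matched on peak strength. With rising fold over local, the dKO vehicle GR share of vacated sites rose (14.8, 22.2 and 54.2%). Over the same strata their control NCOR1 vehicle share fell (74.9, 71.6 and 32.5%). The part of strength in the contrast was not tested. The most frequent combination among vacated sites was NCOR1 in both control lists with no dKO peak of either protein, at 1092 sites (27.9%, against 15.1% of retained sites). Next came NCOR1 in the control vehicle list alone, at 663 sites (16.9%, against 2.15%). A further 554 vacated sites (14.1%, against 3.38%) had no peak in any of the 4 other lists, and 444 (11.3%, against 32.3%) had the dKO vehicle GR peak alone.

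Vacated sites lay in or beside genes more often than retained sites. Inside a protein-coding gene body lay 59.6% of vacated and 54.9% of retained sites. Within 1 kb of either boundary of a gene body, start or end, lay 24.3% and 13.8%. The 3′ ends of genes were not measured apart from the starts. Within 1 kb of an annotated start site lay 926 of 3793 vacated sites (24.4%) and 13.7% of retained sites, against 15.3% of all control vehicle GR peaks on the chromosomes of the promoter table. The share was higher at vacated sites below 8-fold over local, at 27.7% against 18.7% (under 5-fold) and 25.7% against 15% (5-fold to under 8-fold). At 8-fold or more it was 10.2% (7.71 to 13.1) against 12.2% (11.7 to 12.8), and the intervals overlap. Start sites were most common where the NCOR1 antibody gave a peak in dKO liver, at 50.4% of vacated and 29.2% of retained sites with such a peak, against 17.5% and 10.5% without. Vacated sites made up 11.5 to 14.3% of control vehicle peaks on the autosomes and 7.26% on chromosome X (43 of 592).

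Vacated sites were spread over many genes. With each site assigned to the nearest protein-coding gene body within 100 kb, 3661 vacated sites fell to 2958 genes, 2418 of which had a single one. Of these genes, 2096 (70.9%) also had a retained site, and 523 (17.7%) had no dexamethasone GR peak of either genotype assigned. Most genes with a vacated site therefore had a single one, and most had a retained site too. The genes that met both conditions were not counted.

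Genes with many vacated sites had many GR peaks. Zmiz1, a coregulator of the PIAS-like family, had 8 vacated of 20 control vehicle peaks. Prkce, a protein kinase C, had 6 of 32, and Epb41l4b, a FERM domain protein, 6 of 10. Lpp and Ak4 had 5 of 34 and 5 of 13, and Vgll4, Gse1, Rora and Osbpl1a had 4 of 10, 4 of 27, 4 of 31 and 4 of 11. At Zmiz1 the vacated sites had tag counts of 6.37 to 19.3, at most 6.08-fold over local, whereas its strongest retained site had 61.9.

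In 6 of the 3396 genes with at least 3 control vehicle GR peaks, all of them were vacated: Foxp4, Nfic, Limk2, Wnt11, Zdhhc14 and Smim3, with 3 sites each. Nfic, a nuclear factor I transcription factor gene, was the member of this group with no dexamethasone GR peak of either genotype assigned. Its sites had control vehicle tag counts of 15.5, 15.8 and 10.0, and the nearest control dexamethasone peaks lay 33404, 35267 and 57020 bp away. NCOR1 tag counts at the first of them were 33.3 after dexamethasone and 108.3 after vehicle. The second had an NCOR1 peak after dexamethasone alone (49.4) and the third after vehicle alone (26.4).

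Read by pathway, the share of control vehicle GR peaks that were vacated ranged from 3.03% to 30% over 14 gene lists, against 13.1% over all peaks. The interval of 1 list, acute phase and inflammation, lay wholly below 13.1%, and those of the other 13 included it. With 14 lists and intervals that cover counting error only, nothing is read as particular to a list.

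**Figure D5:**
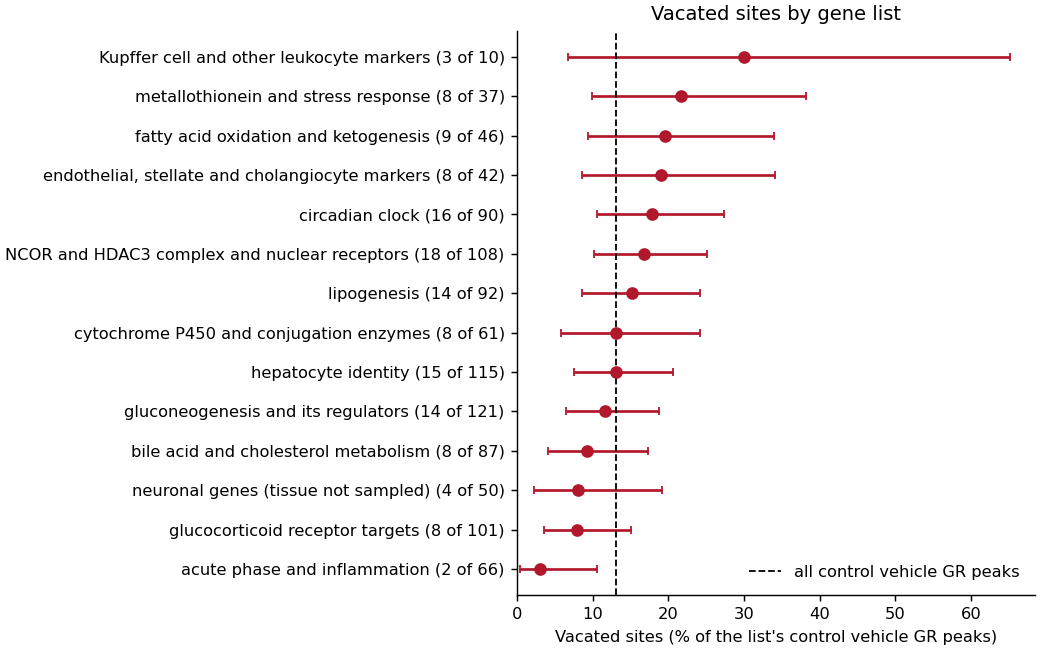
Vacated sites as a share of each gene list's control vehicle GR peaks (x axis, percent), with the counts beside each list. Points are shares, bars 95% exact intervals that cover counting error only, and the dashed line the share over all control vehicle GR peaks, 13.1%; the acute phase list is lowest at 3.03%.

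The acute phase and inflammation genes had 2 vacated of 66 peaks (3.03%, 0.369 to 10.5). They were a weak site in Il1r1, the interleukin 1 receptor (7.46), and one 6.56 kb from Crp, C-reactive protein (14.7). The median tag count of this list's control vehicle peaks was 19.3, above the 13.3 of all peaks. Glucocorticoid receptor targets had 8 of 101 (7.92%, 3.48 to 15; median tag count 24.8). Their strongest vacated sites lay in Mt2, Fkbp5, Klf13 (22.9, 452 bp from the start site) and Arrdc3 (17.8, 17 bp from the start site). At Fkbp5, 8 of the 10 control vehicle peaks were retained.

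Gluconeogenesis genes had 14 of 121 peaks vacated (11.6%, 6.47 to 18.7). Gpt2, an alanine aminotransferase, held 3 vacated sites of 7, with control vehicle tag counts of 24.0, 18.2 and 10.7, all inside the gene, while the 4 retained sites (25.8, 39.1, 73.0 and 33.3) lay outside its body. Irs2, an insulin receptor substrate, had a site 439 bp from its start site with GR tag counts of 18.5 in dKO vehicle and 19.8 in control vehicle. Its NCOR1 peaks straddled the limit, since the nearest was centred 510 bp away after dexamethasone and 493 bp away after vehicle (71.5), so its vehicle-only call rests on the distance chosen. A site 71.7 kb from Cebpb, a C/EBP factor gene, had no dKO vehicle GR peak, a control vehicle GR tag count of 20.2 and a vehicle-only NCOR1 peak of 70.3.

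Fatty acid oxidation and ketogenesis genes had 9 of 46 (19.6%, 9.36 to 33.9). The nuclear receptor gene Ppara was assigned 4 of them among 13 control vehicle peaks. The strongest lay 58 bp from its start site (chromosome 15, 85735734 to 85735934), with GR tag counts of 24.7 in dKO vehicle and 26.9 in control vehicle, no NCOR1 peak within 500 bp in any list, and a control dexamethasone GR peak 903 bp away. Its other 3 vacated sites had 9.65, 12.6 and 11.1, no dKO vehicle GR peak, and NCOR1 after vehicle. They lay outside the gene body, 73.9, 51.9 and 12 kb away in that order. In Cpt1a, the carnitine palmitoyltransferase of mitochondrial fat import, the vacated site had GR tag counts of 23.6 in dKO vehicle and 22.4 in control vehicle, with NCOR1 in all 3 NCOR1 lists. Lipogenesis genes had 14 of 92 (15.2%, 8.58 to 24.2), led by Dgat2, the last enzyme of triglyceride synthesis, with sites of 20.7 and 18.2 and no dKO vehicle peak at either.

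Circadian clock genes had 16 of 90 (17.8%, 10.5 to 27.3). Nr1d1, which encodes REV-ERBalpha, a repressor that recruits NCOR1, had GR tag counts of 18.9 in dKO vehicle and 20.2 in control vehicle at a site inside the gene and no NCOR1 peak in control liver. Per2 was alike, with 16.5 in dKO vehicle and 18.7 in control vehicle, and an NCOR1 antibody peak of 14.9 in dKO liver alone. At Nfil3, a repressor of the clock output, NCOR1 was called within 500 bp after dexamethasone only (48.2). NCOR1 peaks lay 636 bp away in control liver after vehicle and 620 bp away in dKO liver, so that call rests on the distance chosen. The metallothionein and stress response list had 8 of 37 (21.6%, 9.83 to 38.2), including Mt2, Trib1 (21.8), Hsp90aa1 (18.0) and Bnip3 (15.3).

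The list of NCOR and HDAC3 complex and nuclear receptor genes had 18 of 108 (16.7%, 10.2 to 25.1), with Rxra and Nr3c1, the GR gene itself, among its strongest. The Nr3c1 site had GR tag counts of 14.6 in dKO vehicle and 16.2 in control vehicle. Rxra had a start-site peak of 18.3 in dKO vehicle and 24.0 in control vehicle GR, in the window printed above, without NCOR1, and an inner site of 16.6 with a vehicle-only NCOR1 peak of 36.6. Hepatocyte identity genes had 15 of 115 (13%, 7.49 to 20.6), including the Serpina1a promoter (22.2, with a vehicle-only NCOR1 peak of 41.9). Cytochrome P450 and conjugation genes had 8 of 61 (13.1%, 5.84 to 24.2) and bile acid and cholesterol genes 8 of 87 (9.2%, 4.05 to 17.3), with Srebf2 (20.0) the strongest of these.

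Marker genes of other cell types were counted in the same way. Kupffer cell and other leukocyte markers had 3 vacated of 10 (30%, 6.67 to 65.2), all of low tag count: Csf1r (7.83), Ly6c2 (5.82) and Adgre1 (5.28). Endothelial, stellate and cholangiocyte markers had 8 of 42 (19%, 8.6 to 34.1), 3 of them in Stab2, a scavenger receptor of sinusoidal endothelium, with 13.5, 11.8 and 8.74. Neuronal genes, of a tissue not sampled, had 4 of 50 (8%, 2.22 to 19.2).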

How the data were processed

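GR and NCOR1 were profiled by ChIP-seq, and the authors deposited 7 peak lists, 1 per group, with replicates pooled. Per the submitters' processing notes, BWA 0.7.17 and HOMER 4.11 were used with build mm10, beside bedtools 2.29.2 and Trim Galore 0.6.4. HOMER called 200 bp peaks at least 400 bp apart against the input, per the file headers, with 4-fold over input and over the local 10 kb, a Poisson p-value of at most 0.0001 and, for GR alone, a tag threshold of 15. The normalized tag count of a peak is a signal per 10 M tags, as deposited by the authors. Fold over input and fold over local are ratios by the authors, per the file headers. Depth was 27.5 to 31.9 M tags for GR and 17.5 to 36.9 M for NCOR1 lists, and it decides which weak peaks pass.

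Peaks were matched by centre distance in Python 3.11.15 with numpy 2.4.6, pandas 2.3.3 and scipy 1.17.1. Shares have 95% Clopper-Pearson intervals, and no p-value was computed. The matching was tested on simulated peaks planted at known distances from real peak centres, and 0 of 106124 planted calls were wrong. For real peaks of 1 chromosome, 0 of 1024 distances differed from a direct search. Strength was held by 5 equal classes of tag count or by strata of fold over local.

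Gene bodies and start sites came from RefSeq on GRCm38.p6, the assembly of mm10. A site inside several genes went to the shortest. The promoter table, used after it was found among the references, has no start sites for chromosome 18, so shares by start site leave that chromosome out. Genomic sequence of the peaks was not used here. Named sites were the 20 strongest with a gene, up to 4 per gene list, the strongest per NCOR1 or dKO state, the 10 genes with most vacated sites, genes with all of at least 3 peaks vacated, and the 5 on each side of the limit. Some genes that the rule names are not reported here. Printed promoters were the strongest in the table. The members and gene lists were chosen with earlier results of these data known. Alternatives were other distances, strength minimums, lists of equal length and a 25 kb gene limit.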

Additional observations from a re-analysis of the deposited data

How the results depend on the processing

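No paired analysis was possible because each list pools the libraries of its group, and leaving out a replicate was likewise not possible. Of 75 alternative values, 41 stayed within their counting interval or within 1.5 times the count, and 34 moved. All 14 gene list shares stayed within their interval when the gene limit was 25 kb. The alternatives were not computed for retained sites, so the direction of a contrast with retained sites was not checked in them. The number of vacated sites was 568 above the median tag count, 218 at 8-fold or more over local and input, and 2318 with a rule distance of 5000 bp. The last distance, and NCOR1 lists of equal length, were chosen after seeing the data. In the set of 218, 56% had a dKO vehicle GR peak, 17.9% NCOR1 after dexamethasone, 28.9% NCOR1 after vehicle, 16.1% dKO NCOR1, and 58.7% of the NCOR1 vehicle peaks were found after dexamethasone. Other moved values of the dKO vehicle GR share were 25.9% (rule distance 200 bp), 29.6% (control dexamethasone list alone), 40% (above the median), 28.9% (GR lists of equal length) and 26.9% (second list within 1000 bp). Those of NCOR1 after dexamethasone were 53.9% (200 bp), 46.7% (above the median), 57.5% (equal length), 45.5% (second list within 200 bp) and 55.6% (within 1000 bp). Those of NCOR1 after vehicle were 69.8% (200 bp), 65.2% (2000 bp), 63.4% (5000 bp), 71.8% (equal length), 62.3% (second list within 200 bp) and 70.9% (within 1000 bp). Those of dKO NCOR1 were 22.3% (200 bp), 22.7% (5000 bp), 14.3% (above the median), 16.9% (second list within 200 bp) and 23.7% (within 1000 bp). The share of NCOR1 vehicle peaks also found after dexamethasone was 70.6% (200 bp), 70.1% (control dexamethasone list alone), 74.9% (equal length), 65.2% (second list within 200 bp) and 72.2% (within 1000 bp). The cause was not tested.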
